A study of Mus musculus with 12 samples.

Results

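The pericentral hepatocyte genes Glul, Oat, Slc1a2, Rhbg, Cyp2e1, Cyp1a2, Axin2, Lgr5, Tbx3 and Lect2 were followed in RNA sequencing of whole mouse liver. They were chosen by name, as genes known to be expressed around the central vein, and make up 10 of the 31253 symbols listed. All 10 passed the filter on low values, a TPM (a relative transcript level scaled for length) above 1 in at least 3 of 12 libraries. The livers came from male C57BL6 mice of 4 groups with n = 3 libraries each. Knock-in mice given diethylnitrosamine (S302A_DEN) carried an alanine in place of a serine in the RNA-binding protein CUGBP1 and had received the liver carcinogen DEN when 3 weeks old, at a dose of 50 µg per g. The other groups were untreated knock-in mice (S302A_Ctrl), wild-type mice given the same DEN dose (WT_DEN) and untreated wild-type mice (WT_Ctrl). One label field gives 30 to 38 weeks, read here as the time from DEN to collection of the liver, and another gives an age of 33 to 41 weeks. The labels state neither the zygosity of the knock-in allele nor the age of a single mouse.

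Hepatocytes differ along the path of blood from the portal to the central vein. Wnt ligands and R-spondins released by endothelial cells of the central vein activate beta-catenin with its TCF partners in the nearest hepatocytes, and this keeps the pericentral genes on. Among them, Glul encodes glutamine synthetase, which captures ammonia that escapes the periportal urea cycle, and Oat, Slc1a2 and Rhbg encode an ornithine aminotransferase, a glutamate importer and an ammonia channel that serve the same task. Cyp2e1 and Cyp1a2 encode cytochromes P450 of foreign compound metabolism, and CYP2E1 is the main enzyme that activates DEN into a DNA-alkylating agent. Axin2 encodes a scaffold of the beta-catenin destruction complex that is itself induced by Wnt signals, Lgr5 a receptor for R-spondins, Tbx3 a T-box transcriptional repressor and Lect2 a secreted hepatocyte protein, all known as beta-catenin targets in liver.

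TPM keeps no read depth, so the depth of each library and its counting error are unknown, and no value lay below 1, so a value of 1 was read as 1 or less. Since the labels do not tie libraries to separate animals, p-values reflect only the spread among these samples. S302A_DEN replicate 3 stood apart, with 13083 symbols above 1 TPM against 10839 to 11653 in the other 11 libraries, and most genes were higher in it than in both other S302A_DEN replicates (10539 of 12120 tested, 87.0%). Its summed tumour and fetal liver markers reached 897 TPM, against 48.8 and 58.5 TPM in the other S302A_DEN replicates. Its summed stellate cell markers reached 225 TPM against 33.2 and 67.6, while its hepatocyte markers, at 66358 TPM against 71636 and 77523, were the lowest of the group. Results that rest on this library are therefore given with and without it. The median change over all tested genes was 0.27 on the log2 scale for DEN in knock-in livers, 0.13 for DEN in wild-type livers and 0.14 for their difference, and it became 0.01, -0.02 and 0.03 when libraries were rescaled by median-of-ratios factors. Changes below were estimated with limma on log2(TPM + 1), which understates changes of low genes, and genes were called at an adjusted p below 0.05.

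Levels per length differed widely between the members. Over the 12 libraries the median was 4339 TPM for Cyp2e1, 493 TPM for Cyp1a2, 335 TPM for Oat, 276 TPM for Glul and 174 TPM for Lect2. Slc1a2 followed at 16.0 TPM, Rhbg at 6.21 TPM, Tbx3 at 5.88 TPM, Axin2 at 2.37 TPM and Lgr5 at 1.04 TPM. The ranges of neighbours in this order overlapped, except for Lect2 (lowest 128 TPM) over Slc1a2 (highest 37.6 TPM). Cyp2e1 overlapped Cyp1a2, and Tbx3 overlapped Axin2, only through S302A_DEN replicate 3. Whole liver holds all zones, so none of these levels can be assigned to pericentral cells, and fewer cells of a type and less RNA per cell cannot be told apart.

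The promoters of Slc1a2, Oat and Cyp2e1 are shown because these members were lower in every S302A_DEN library than in every WT_DEN library, and that of Cyp1a2 because its level in a single library departed most. Each runs from 250 bases before to 50 bases after the transcription start in RefSeq (GRCm38.p6), 5′ to 3′ along the gene, and capitals mark the TCF/LEF core CTTTGA on either strand (TCAAAG when read on the other).
Slc1a2 (chr2:102706188-102706487, plus strand): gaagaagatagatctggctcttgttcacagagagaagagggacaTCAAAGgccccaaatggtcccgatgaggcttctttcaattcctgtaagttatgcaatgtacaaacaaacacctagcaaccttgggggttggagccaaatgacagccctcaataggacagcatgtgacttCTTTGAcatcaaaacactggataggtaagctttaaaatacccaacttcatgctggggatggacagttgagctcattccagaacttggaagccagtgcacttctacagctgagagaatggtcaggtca
Oat (chr7:132576349-132576648, minus strand): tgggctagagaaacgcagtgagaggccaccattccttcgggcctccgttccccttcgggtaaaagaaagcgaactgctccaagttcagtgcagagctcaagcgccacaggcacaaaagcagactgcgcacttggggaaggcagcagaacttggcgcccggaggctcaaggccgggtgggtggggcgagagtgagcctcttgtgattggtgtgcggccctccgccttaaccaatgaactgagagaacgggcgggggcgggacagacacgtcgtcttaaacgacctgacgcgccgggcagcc
Cyp2e1 (chr7:140763569-140763868, plus strand): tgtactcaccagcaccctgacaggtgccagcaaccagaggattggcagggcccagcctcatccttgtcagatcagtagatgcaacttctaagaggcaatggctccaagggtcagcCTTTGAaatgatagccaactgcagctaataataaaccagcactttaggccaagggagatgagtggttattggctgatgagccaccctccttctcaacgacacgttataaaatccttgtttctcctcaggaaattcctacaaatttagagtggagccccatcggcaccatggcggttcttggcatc
Cyp1a2 (chr9:57683606-57683905, minus strand): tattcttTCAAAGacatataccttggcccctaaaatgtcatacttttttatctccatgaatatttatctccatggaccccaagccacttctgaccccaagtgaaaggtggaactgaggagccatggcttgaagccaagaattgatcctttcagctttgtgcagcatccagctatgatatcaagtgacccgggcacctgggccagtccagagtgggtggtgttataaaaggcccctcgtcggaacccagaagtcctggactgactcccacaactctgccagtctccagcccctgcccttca
The core was found at positions -206 and -77 of Slc1a2, -135 of Cyp2e1 and -243 of Cyp1a2, counted back from the start, and in no place of the Oat window. RefSeq promoters were at hand for 7 members, and 4 of them held the core, Lect2 (position -31) being the other one, against 16.0% of 32851 mouse promoters. The core GCGTG of the aryl hydrocarbon receptor (AHR), the factor known to induce Cyp1a2, was absent from the Cyp1a2 window and present only in that of Lect2 (position -190), against 32.4% of promoters. These matches describe letters in a window and are not measured binding. The Slc1a2 window lies inside the GENCODE gene, whose start differs. The GENCODE starts of Cyp2e1, Cyp1a2 and Lect2 also differ from those in RefSeq, by less than the length of the window. The positions given hold for the RefSeq starts only. Lgr5, Rhbg and Tbx3 are named without a promoter.

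Slc1a2 (chr2:102658659-102790784, plus strand, GENCODE M21), the glutamate importer, was the only member called with all 12 libraries. It stood at 9.36, 9.31 and 7.09 TPM in S302A_DEN replicates 1 to 3, against 14.5, 11.2 and 13.3 TPM in S302A_Ctrl. Wild-type livers held 20.2, 24.0 and 33.0 TPM in WT_DEN, against 37.6, 17.5 and 24.2 TPM in WT_Ctrl. The 6 knock-in libraries (7.09 to 14.5 TPM) thus lay below the 6 wild-type libraries (17.5 to 37.6 TPM) with or without DEN, a separation in this direction that 7 of 12120 tested genes showed (0.0578%). Those 7 included Cyp2c37 and Cyp2c50, described below, and the genes were picked out after their values were seen. After DEN, Slc1a2 averaged 8.59 ± 1.30 TPM in S302A_DEN and 25.7 ± 6.59 TPM in WT_DEN (SD, n = 3 each), 0.334 times the wild-type level. The log2 change was -1.46 ± 0.277 (SE), with a limma adjusted p of 0.0477. Without S302A_DEN replicate 3 the change was -1.34 and was still called (adjusted p = 0.0233). The call sat close to the threshold and was lost in 14 of 20 alternatives. Over these 20 the adjusted p ran from 0.0233 to 0.293 while the log2 change stayed between -1.61 and -1.27. The call was lost without S302A_DEN replicate 1 (adjusted p = 0.0766) or 2 (0.0962), and without WT_DEN replicate 1 (0.0790), 2 (0.179) or 3 (0.293). Leaving out a library of another group also ended it, for S302A_Ctrl replicates 1 to 3 at adjusted p of 0.0821, 0.0685 and 0.0934 and for WT_Ctrl replicate 3 at 0.0851. The untreated groups did not overlap either, at 13.0 ± 1.68 TPM in S302A_Ctrl and 26.4 ± 10.2 TPM in WT_Ctrl, but the log2 change of -0.91 was not called (adjusted p = 1). DEN itself left wild-type Slc1a2 within the spread of its replicates (log2 change 0.00, 95% interval -0.60 to 0.60, adjusted p = 1). In knock-in livers the DEN groups did not overlap, with a log2 change of -0.55 (adjusted p = 0.340).

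**Figure D1:**
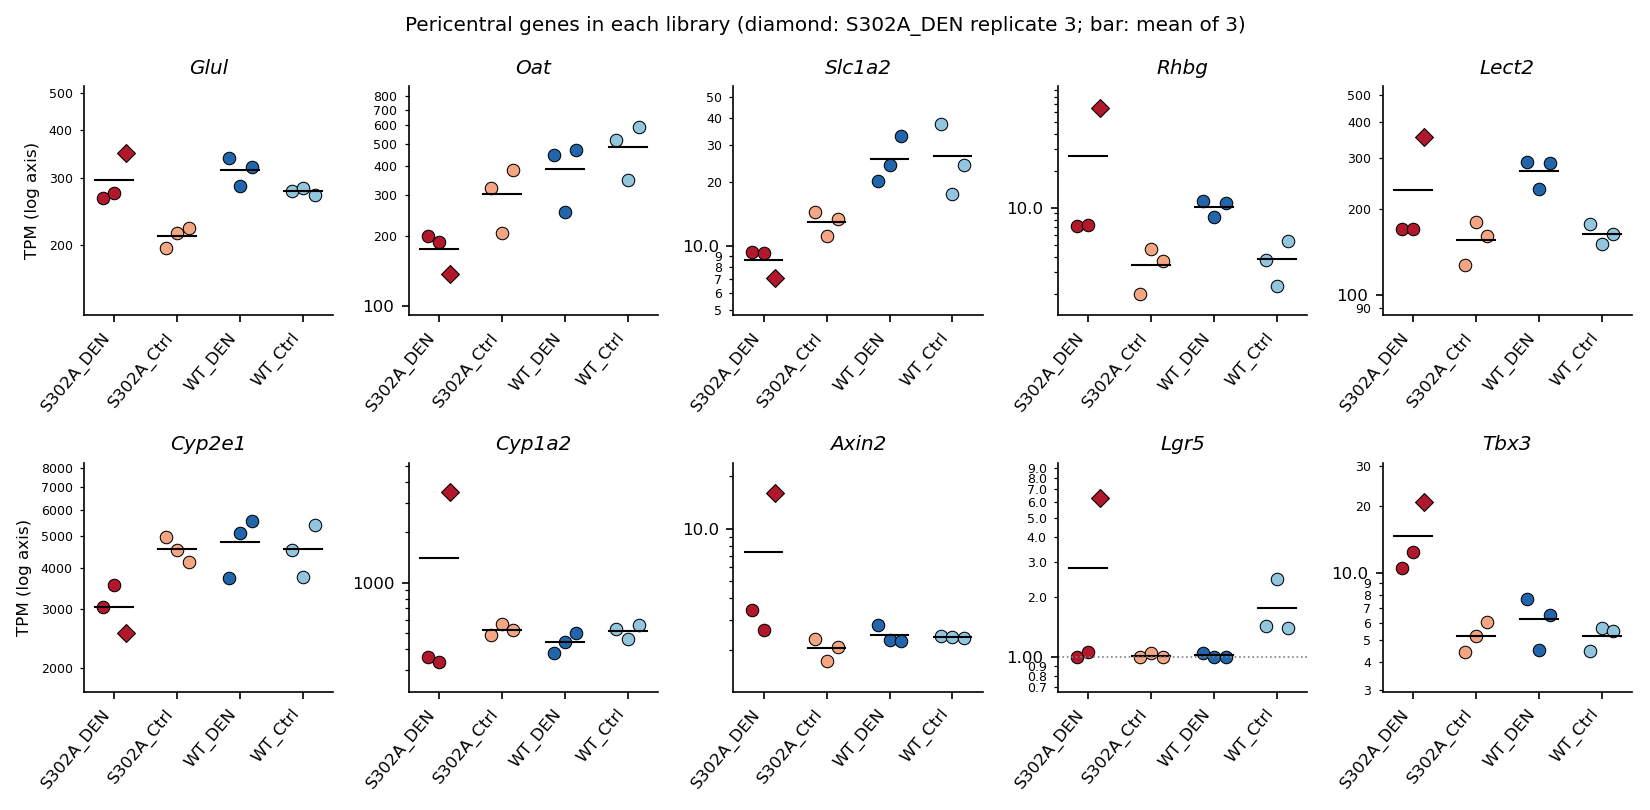
Level of each pericentral gene in the 12 libraries, in TPM on a log axis that differs between panels, with 1 point per library, the mean of 3 libraries as a bar and S302A_DEN replicate 3 as a diamond. Slc1a2 lies between 7.09 and 14.5 TPM in the knock-in libraries and between 17.5 and 37.6 TPM in the wild-type libraries, and the diamond is far above the other points for Cyp1a2, Rhbg, Axin2 and Lgr5.

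Oat (chr7:132557478-132576398, minus strand), which passes the amino group of ornithine to make glutamate, showed a like order of groups. Its levels were 201, 189.8 and 137 TPM in S302A_DEN, against 321, 206 and 384 TPM in S302A_Ctrl. Wild-type levels were 448, 253 and 472 TPM in WT_DEN, against 521, 349 and 589 TPM in WT_Ctrl. All 3 S302A_DEN libraries were below every library of the other groups, whereas those other groups overlapped one another. The mean was 176 ± 34.1 TPM in S302A_DEN and 391 ± 120.0 TPM in WT_DEN (log2 change -1.11 ± 0.309 SE), which was not called (adjusted p = 0.195; 0.110 without S302A_DEN replicate 3). DEN in knock-in livers gave a log2 change of -0.76 (adjusted p = 0.272) and DEN in wild-type livers one of -0.33 (adjusted p = 0.898).

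Glul (chr1:153899944-153909723, plus strand), the innermost pericentral marker, varied least over the 12 libraries. Without S302A_DEN replicate 3 Cyp1a2 varied slightly less (highest over lowest library 1.69, against 1.72 for Glul). Glul stood at 266, 274 and 348 TPM in S302A_DEN, against 196, 215 and 221 TPM in S302A_Ctrl. In WT_DEN it stood at 338, 286 and 321 TPM, against 277, 282 and 270.3 TPM in WT_Ctrl. The S302A_Ctrl libraries were the lowest of all 12, below each WT_Ctrl library and each S302A_DEN library, and every WT_DEN library was above every WT_Ctrl library. Glul was 0.762 times the wild-type level in untreated knock-in livers (log2 change -0.39, adjusted p = 1) and 1.40 times the untreated level in knock-in livers after DEN (0.48, adjusted p = 0.199). Between the DEN groups it averaged 296 ± 45.1 TPM in S302A_DEN and 315 ± 26.6 TPM in WT_DEN, a log2 change of -0.10 (95% interval -0.45 to 0.26, adjusted p = 0.953) that turned to 0.03 with quantile normalization. None of the Glul differences was called.

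Rhbg (chr3:88242874-88254709, minus strand), the ammonia channel, was the member that separated DEN from untreated livers. It stood at 7.03, 7.23 and 64.8 TPM in S302A_DEN, against 2.00, 4.58 and 3.68 TPM in S302A_Ctrl. Wild-type levels were 11.3, 8.32 and 10.9 TPM in WT_DEN, against 3.78, 2.29 and 5.38 TPM in WT_Ctrl. All 6 DEN libraries exceeded all 6 untreated libraries, as 372 tested genes did (3.07%). In wild-type livers DEN gave 10.2 ± 1.64 TPM against 3.81 ± 1.55 TPM untreated, 2.67 times as much (log2 change 1.26, adjusted p = 0.645). It was called when S302A_DEN replicate 3 was left out (adjusted p = 0.0436). That library is no part of the comparison but enters the spread shared by all groups, and the SE of the change was 0.640 with it and 0.270 without it. In knock-in livers the log2 change was 1.93 with that library (adjusted p = 0.184) and 0.93 without it (adjusted p = 0.141). The 2 remaining S302A_DEN libraries lay below all WT_DEN libraries, so the knock-in against wild-type change after DEN was 0.56 with replicate 3 and -0.45 without it, called in neither case (adjusted p = 0.910 and 0.394).

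Cyp2e1 (chr7:140763739-140774987, plus strand), the DEN-activating cytochrome and the most abundant member, stood at 3045, 3555 and 2539 TPM in S302A_DEN, against 4961, 4523 and 4154 TPM in S302A_Ctrl. Wild-type livers held 3741, 5090.0 and 5543 TPM in WT_DEN, against 4535, 3750.2 and 5389 TPM in WT_Ctrl. The S302A_DEN libraries were the 3 lowest of all 12. S302A_DEN averaged 3046 ± 508 TPM, against 4546 ± 404 TPM in S302A_Ctrl (log2 change -0.59, adjusted p = 0.263) and 4791 ± 938 TPM in WT_DEN (-0.65, adjusted p = 0.394). Without replicate 3 these changes were -0.46 and -0.52 (adjusted p = 0.320 and 0.180), so neither was called. DEN in wild-type livers left Cyp2e1 at 1.05 times the untreated level (log2 change 0.07, 95% interval -0.44 to 0.58, adjusted p = 0.988), a sign that turned to -0.11 under median-of-ratios scaling.

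Cyp1a2 (chr9:57676937-57683703, minus strand), the AHR-inducible cytochrome, lay within 333 to 561 TPM in 11 libraries and far above in 1. It stood at 357, 333 and 3492 TPM in S302A_DEN, against 486, 561 and 518 TPM in S302A_Ctrl. In WT_DEN it stood at 377, 438 and 499.6 TPM, against 525, 462 and 555 TPM in WT_Ctrl. S302A_DEN replicate 3 held 6.22 times the highest of the other 11 libraries, while the other 2 replicates of its group were the lowest of all. The change in knock-in livers after DEN was accordingly 0.52 on the log2 scale with replicate 3 and -0.59 without it (adjusted p = 0.655 and 0.0681). Against WT_DEN it was 0.78 and -0.33 (adjusted p = 0.867 and 0.202), so the direction of each rested on that library.

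Axin2 (chr11:108920349-108950783, plus strand), the Wnt feedback scaffold, stood at 3.40, 2.63 and 16.0 TPM in S302A_DEN, against 2.31, 1.73 and 2.09 TPM in S302A_Ctrl. Wild-type levels were 2.80, 2.29 and 2.25 TPM in WT_DEN, against 2.42, 2.40 and 2.35 TPM in WT_Ctrl. Apart from S302A_DEN replicate 3 the libraries lay within 1.73 to 3.40 TPM. The S302A_DEN group was above the S302A_Ctrl group in every library, with a log2 change of 1.09 with replicate 3 and 0.40 without it (adjusted p = 0.261 and 0.179). The wild-type groups overlapped, with a log2 change of 0.02 (95% interval -0.92 to 0.96).

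Lgr5 (chr10:115450311-115587780, minus strand), the R-spondin receptor, was near the lowest listed value almost everywhere. It stood at 1.00, 1.05 and 6.36 TPM in S302A_DEN and at 1.00, 1.04 and 1.00 TPM in S302A_Ctrl. The wild-type groups held 1.05, 1.00 and 1.00 TPM in WT_DEN, against 1.43, 2.45 and 1.39 TPM in WT_Ctrl. Each WT_Ctrl library was thus above each library of the other groups except S302A_DEN replicate 3. DEN in wild-type livers gave a log2 change of -0.43 (adjusted p = 0.886; 0.0975 without that replicate), and the untreated knock-in change was -0.43 (adjusted p = 1). In knock-in livers the DEN change was 0.63 with replicate 3 and 0.01 without it (adjusted p = 0.401 and 0.994).

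Tbx3 (chr5:119670669-119684724, plus strand), the T-box repressor, was highest in DEN-treated knock-in livers. It stood at 10.6, 12.4 and 20.8 TPM in S302A_DEN, against 4.42, 5.25 and 6.07 TPM in S302A_Ctrl. The wild-type groups held 7.65, 4.55 and 6.50 TPM in WT_DEN, against 4.47, 5.69 and 5.51 TPM in WT_Ctrl. All 3 S302A_DEN libraries exceeded the other 9, among which the groups overlapped. Relative to S302A_Ctrl the change in S302A_DEN was 1.27 ± 0.271 on the log2 scale (SE), 2.78 times the untreated level, and just missed the threshold (adjusted p = 0.0594). It was called without S302A_DEN replicate 3 (1.00, adjusted p = 0.0346), without replicate 2 (1.36, adjusted p = 0.0406) and under median-of-ratios scaling (0.99, adjusted p = 0.0244), which called 5.37% of all genes. Relative to WT_DEN the change was 1.08 (adjusted p = 0.146), and 0.81 without replicate 3 (adjusted p = 0.0470). Under median-of-ratios scaling it was 1.03 (adjusted p = 0.0312), where 1.73% of all genes were called and Slc1a2 no longer was (adjusted p = 0.0515). DEN in wild-type livers gave 0.20 (95% interval -0.39 to 0.79), and the difference between the genotypes in their DEN change was 1.08, not called (adjusted p = 0.704).

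Lect2 (chr13:56542464-56548502, minus strand), the secreted protein, stood at 170.0, 171 and 357 TPM in S302A_DEN, against 128, 180.1 and 161 TPM in S302A_Ctrl. Wild-type levels were 292, 235 and 289 TPM in WT_DEN, against 178, 152 and 163 TPM in WT_Ctrl. The WT_DEN libraries were above every library of the other groups except S302A_DEN replicate 3, and the other 8 libraries overlapped. DEN in wild-type livers gave 272 ± 31.8 TPM against 164 ± 13.1 TPM untreated, 1.66 times as much (log2 change 0.72, adjusted p = 0.473), and was called without S302A_DEN replicate 3 (adjusted p = 0.0362). Knock-in against wild type after DEN was -0.31 with that library (adjusted p = 0.870) and -0.67 without it (adjusted p = 0.0385).

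Counted over the members, DEN in wild-type livers left 3 genes (Glul, Rhbg, Lect2) with every WT_DEN library above every WT_Ctrl library and 1 (Lgr5) below, against 21.7% and 3.21% of tested genes. None of the 10 was called, against 0.132% of all tested genes, and 1 had an unadjusted p under 0.05, against 8.26% of all tested genes. Without S302A_DEN replicate 3, Rhbg and Lect2 were called higher, against 1.93% of all tested genes. The members' median change was 0.04, beside 0.13 over all genes. The sum of the 8 hepatocyte markers, none of them at 1 throughout, was 85191 to 101888 TPM in WT_DEN and 54249 to 75564 TPM in WT_Ctrl. Its part in the members' values was not tested.

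In knock-in livers DEN separated 7 members: Glul, Rhbg, Axin2 and Tbx3 were higher and Oat, Slc1a2 and Cyp2e1 lower in every library, against 15.8% and 2.68% of tested genes. None was called, against 0.619% of all genes, although 6 had an unadjusted p under 0.05, against 16.4% of all genes. Without replicate 3 only Tbx3 was called, against 1.22% of genes called higher. The median change of the members was 0.51 with this library and 0.07 without it, beside 0.27 and 0.00 over all genes. The summed cholangiocyte markers were 61.7 to 141 TPM in S302A_DEN, against 19.1 to 22.1 TPM in S302A_Ctrl. Of the 6 listed, Krt7 and Cftr were at 1 in all libraries, only 2 (Spp1 and Sox9) were tested and Spp1 was called higher. With so few tested, the sum was not read as a sign of ductular cells. The summed tumour and fetal liver markers were 48.8 to 897 TPM in S302A_DEN, against 10.1 to 11.1 TPM in S302A_Ctrl, with no overlap. In wild-type livers they were 10.4 to 58.3 TPM in WT_DEN, overlapping S302A_DEN, against 11.3 to 15.5 TPM in WT_Ctrl. The median change of the 6 tested markers was 1.75 in the knock-in (0.29 without replicate 3) and 0.96 in wild type. Of the 10 listed, H19 and Igf2 were at 1 in all libraries and Tff3 was called higher. The part of either shift in the members' values was not tested.

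Untreated knock-in livers differed from untreated wild-type livers in no called member, against 0.033% of all genes (0.0337% without S302A_DEN replicate 3), and 3 had an unadjusted p under 0.05, against 1.48% of all genes. Glul, Slc1a2, Axin2 and Lgr5 were lower in every S302A_Ctrl library than in every WT_Ctrl library and no member was higher in every one, against 5.27% and 1.69% of tested genes. The members' median change was -0.14, beside -0.07 over all genes.

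After DEN, in a comparison that shares the S302A_DEN libraries with that of DEN in the knock-in, Slc1a2, Oat and Cyp2e1 were lower and Tbx3 higher in every S302A_DEN library than in every WT_DEN library, against 6.19% and 3.23% of tested genes. Slc1a2 was the 1 member called, against 0.38% of genes called in either direction and 0.272% called lower, and 4 members had an unadjusted p under 0.05, against 7.83% of all genes. Without replicate 3, Slc1a2 and Lect2 were called lower and Tbx3 higher, against 5.3% and 0.589% of all genes. The members' median change was 0.23 with this library and -0.39 without it, beside 0.07 and -0.20 over all genes. The cholangiocyte sums were 61.7 to 141 TPM in S302A_DEN and 22.1 to 31.3 TPM in WT_DEN, and Spp1 was called higher here too. The sums of the 8 hepatocyte markers were 66358 to 77523 TPM in S302A_DEN and 85191 to 101888 TPM in WT_DEN. Such sums are set by the most abundant markers. Singly, 3 of the 8 were higher and 5 lower, with a median change of -0.13 and none called, and 4 were higher without replicate 3. The part of either in the members' changes was not tested.

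The difference between the genotypes in their DEN change was called for no member, against 0.0413% of all genes (0.631% without replicate 3), and 1 member, Tbx3, had an unadjusted p under 0.05, against 5.06% of all genes. The members' median difference was 0.49 with replicate 3 and -0.29 without it, beside 0.14 and -0.13 over all genes.

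**Figure D2:**
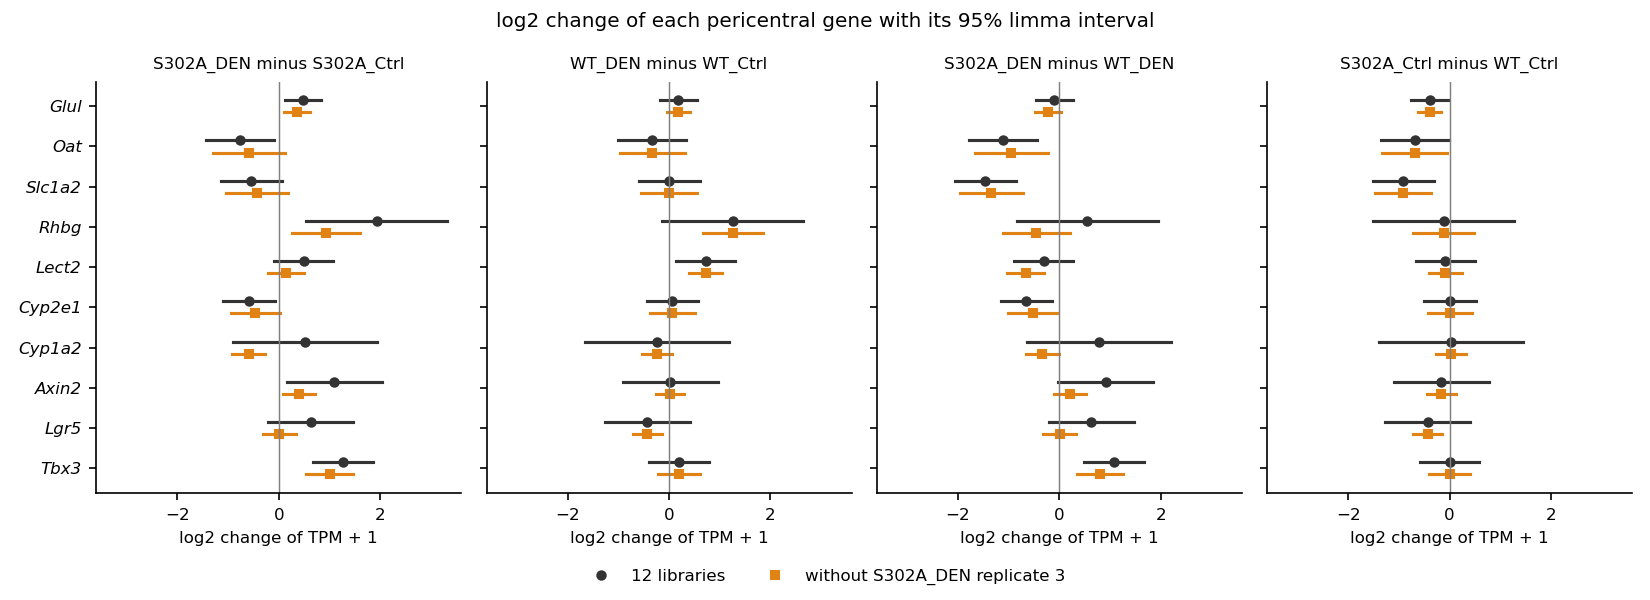
log2 change of TPM + 1 for each pericentral gene (points) with its 95% limma interval (lines), for S302A_DEN minus S302A_Ctrl, WT_DEN minus WT_Ctrl, S302A_DEN minus WT_DEN and S302A_Ctrl minus WT_Ctrl, with 12 libraries (circles) and without S302A_DEN replicate 3 (squares). Slc1a2 lies at -1.46 and -1.34 in S302A_DEN minus WT_DEN, and the squares of Cyp1a2 lie on the other side of 0 from its circles in both comparisons of S302A_DEN.

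Within S302A_DEN replicate 3 the members ranged from far above to below the other 2 S302A_DEN replicates. Cyp1a2 stood at 10.1 times the mean of the other 2 S302A_DEN replicates, Rhbg at 9.09 times, Lgr5 at 6.19 times and Axin2 at 5.31 times. Lect2, Tbx3 and Glul stood at 2.09, 1.81 and 1.29 times that mean. Oat, Cyp2e1 and Slc1a2 stood below both other replicates, at 0.702, 0.769 and 0.760 times their mean. The library was therefore above both others for 7 of 10 members, against 87.0% of all tested genes. It was below both for 3 members, against 631 of 12120 tested genes. The median log2 difference was 0.94 for the members and 0.79 for all genes. The differences of Oat, Cyp2e1 and Slc1a2 were lower than those of all but 3.14%, 3.84% and 3.95% of tested genes, while 99.2% of tested genes had a lower difference than Cyp1a2. This share was 98.8% for Rhbg, 95.8% for Axin2 and 93.8% for Lgr5. It was 70.8% for Lect2, 51.9% for Tbx3 and 20.6% for Glul, so Glul was low beside the general rise and Tbx3 near its middle. Wnt feedback and target genes were above both replicates in 9 of 9 cases (median log2 difference 1.04) and AHR pathway genes in 6 of 6 (1.15). Wnt receptors and signal transducers were so in 23 of 23 cases (0.90) and other pericentral genes in 20 of 24 (1.02). These shares stand beside 87.0% of all tested genes. Genes of the periportal zone, at the other end of the lobule, were below both in 11 of 18 cases (median -0.41), and so were general hepatocyte markers in 5 of 8 (-0.48). Among all tested genes 631 of 12120 were below both. Markers of other cells were as high as the Wnt and AHR genes, with medians of 1.58 for stellate cells, 1.27 for endothelium and 1.15 for macrophages. These counts describe 1 library and have no replicate check.

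**Figure D3:**
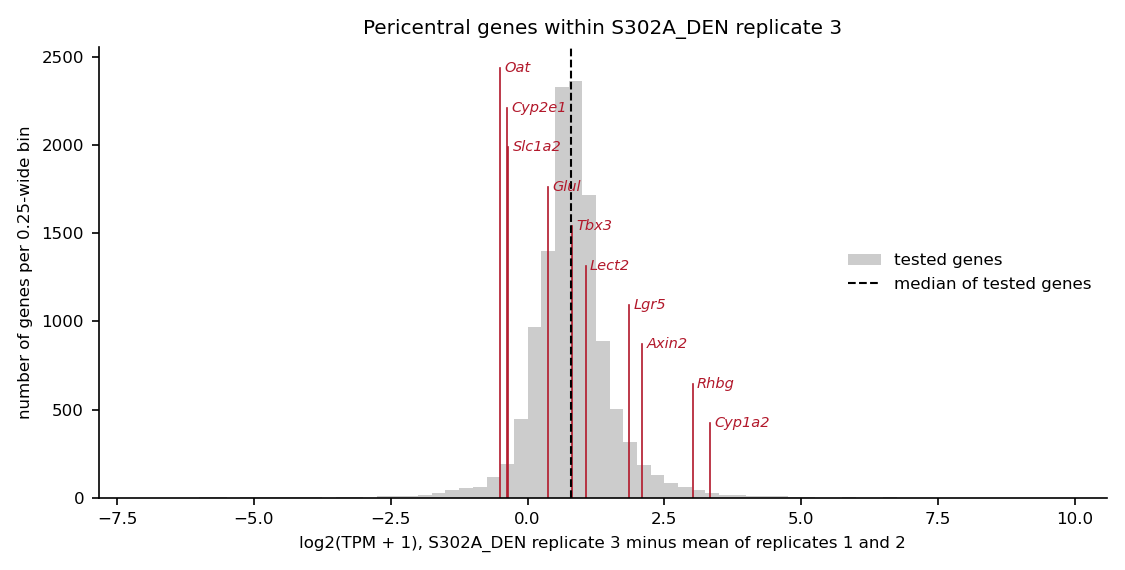
Histogram of the difference in log2(TPM + 1) between S302A_DEN replicate 3 and the mean of S302A_DEN replicates 1 and 2 over 12120 tested genes (bars, number of genes), with the median of 0.79 dashed and each pericentral gene as a red line whose height only separates the labels. Oat, Cyp2e1 and Slc1a2 lie in the left tail and Rhbg and Cyp1a2 in the right tail.

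Of 24 other genes known to be pericentral, 4 were called lower in S302A_DEN than in WT_DEN and none higher, against 0.272% of all genes called lower, and the median change was -0.22. All 4 were Cyp2c cytochromes, near-identical paralogs whose reads can be shared, so their single values are uncertain. Cyp2c37 stood at 20.6, 74.9 and 33.9 TPM in S302A_DEN, against 408, 259 and 299 TPM in WT_DEN. Its groups did not overlap (log2 change -3.04, adjusted p = 0.0118), nor did those of Cyp2c54 (-2.61, adjusted p = 0.00747), Cyp2c50 (-2.28, adjusted p = 0.0169) and Cyp2c29 (-2.18, adjusted p = 0.0191). All 4 calls were lost without WT_DEN replicate 3 (adjusted p of at most 0.0687) and when the compared libraries were fitted alone (0.0730 to 0.0897). Those of Cyp2c50 and Cyp2c29 were also lost without WT_DEN replicate 1 (0.0690 and 0.0763) or 2 (0.0620 and 0.0863). Without S302A_DEN replicate 3, 12 of the 24 were called lower, against 5.3% of all genes, among them the retinal dehydrogenase gene Aldh1a1, the xenobiotic receptor gene Nr1i3 and Cyp3a11, and none of the 24 was called higher. Cyp3a11, a cytochrome of broad drug metabolism, was lower after DEN in every library of both genotypes, with log2 changes of -2.73 in knock-in livers and -2.30 in wild-type livers (adjusted p = 0.0634 and 0.233). Both were called without S302A_DEN replicate 3 (-3.65 and -2.30, adjusted p = 0.000833 and 0.00618). In knock-in livers Cyp3a11 was also called under median-of-ratios scaling (adjusted p = 0.0119), quantile normalization (0.0292) and the filter of at least 5 TPM (0.0399), and in wild-type livers from their 6 libraries alone (0.0138). At the main settings with all libraries no gene of the list was called for DEN in either genotype. Besides Cyp3a11, the smallest p belonged to the vasopressin receptor gene Avpr1a in knock-in livers (1.23, adjusted p = 0.0629; 0.0427 under median-of-ratios scaling, 0.0395 with at least 5 TPM and 0.0497 without S302A_DEN replicate 2) and to Nr1i3 in wild-type livers (1.10, adjusted p = 0.389). In untreated livers Cyp2c37 (-2.54, adjusted p = 0.113) and Cyp2c50 (-1.32, adjusted p = 0.988) were lower in the knock-in without a call. Cyp2c37 was called there without S302A_DEN replicate 1 (adjusted p = 0.0356) or 2 (0.0198).

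None of the Wnt signalling genes that set the zone was called in any comparison at the main settings. Of 10 ligands and secretion factors, Wnt9b, Wnt4, Wnt11, Rspo1 and Rspo2 stood at 1 in all 12 libraries and 4 were tested. Wnt2, a ligand of central vein endothelium, stood at 1.33, 1.14 and 2.26 TPM in WT_DEN, against 1.00 TPM in each WT_Ctrl library and each S302A_DEN library. In S302A_Ctrl it stood at 1.28, 1.00 and 1.00 TPM, overlapping WT_DEN. Wnt2 was thus near the lowest listed value throughout and passed the filter only through its WT_DEN libraries. Its log2 changes were 0.34 for DEN in wild type and -0.34 for knock-in after DEN (adjusted p = 0.609 and 0.643). Porcn, which acylates Wnt proteins, gave -0.12 for DEN in wild type and -0.30 in the knock-in (adjusted p = 0.947 and 0.367). Wls, their carrier, gave 0.33 for DEN in the knock-in and 0.36 for knock-in after DEN (adjusted p = 0.362 and 0.685), and 0.13 and 0.16 without S302A_DEN replicate 3. Of 24 receptors and transducers 23 were tested, with medians of 0.23 for DEN in the knock-in, 0.16 for DEN in wild type and 0.06 for knock-in after DEN. Without S302A_DEN replicate 3 the medians for DEN in the knock-in and for knock-in after DEN were -0.07 and -0.23, so the sign of both turned on that library. The coreceptor gene Lrp5 had the smallest p for DEN in both genotypes (0.86 and 0.49, adjusted p = 0.188 and 0.740 in knock-in and wild type), followed by Pygo2 in the knock-in (0.41, adjusted p = 0.366) and Dvl1 in wild type (0.35, adjusted p = 0.838). For DEN in the knock-in Lrp5 was called under median-of-ratios scaling (0.57, adjusted p = 0.0444) and quantile normalization (0.55, adjusted p = 0.0475), and its change was 0.54 without S302A_DEN replicate 3, where that of Pygo2 was 0.24. After DEN, Fzd7 gave 0.42 and Lrp6 -0.29 between the genotypes (adjusted p = 0.817 and 0.865), and 0.087 and -0.50 without S302A_DEN replicate 3. Of 12 feedback and target genes Lef1 and Dkk1 stood at 1 in all libraries and 9 were tested. The TCF gene Tcf7 gave 0.94 for DEN in the knock-in and 0.74 in wild type (adjusted p = 0.275 and 0.665). Zbed3, an Axin-binding protein gene, gave 0.58 and 0.43 in the same comparisons (adjusted p = 0.272 and 0.684). Without S302A_DEN replicate 3 the knock-in changes were 0.43 for Tcf7 and 0.28 for Zbed3, below those in wild type. Between the genotypes after DEN, the Wnt receptor ligase gene Rnf43 gave 0.66 and the R-spondin receptor gene Lgr4 -0.30 (adjusted p = 0.651 and 0.797), and 0.32 and -0.42 without that replicate.

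Genes of glutamine and ammonia handling beside the members were 15, of which 12 were tested and none was called at the main settings. Median-of-ratios scaling called 3 of them lower for DEN in the knock-in and 3 lower for knock-in after DEN. It called 5.37% and 1.73% of all genes in either direction in these comparisons. The mitochondrial carbonic anhydrase gene Car5a was 0.476 times as high in S302A_DEN as in WT_DEN (log2 change -1.08, adjusted p = 0.0624) and gave 0.99 for DEN in wild type (adjusted p = 0.152). Prodh, for proline dehydrogenase, gave -0.87 and 0.86 in these comparisons (adjusted p = 0.186 and 0.255). Without S302A_DEN replicate 3 both genes were called in both comparisons (adjusted p of 0.0173 and 0.0337 for Car5a, 0.0178 and 0.0433 for Prodh). That setting called 5.3% of all genes lower for knock-in after DEN and 1.93% higher for DEN in wild type. For DEN in the knock-in the amino acid transporter genes Slc38a4 and Slc7a2 gave -0.74 and -1.17 (adjusted p = 0.0822 and 0.110). Under median-of-ratios scaling they were called (adjusted p = 0.0453 and 0.0258), as were Car5a and Prodh for knock-in after DEN (0.0277 and 0.0312), and all 4 were also called with quantile normalization. Of 9 AHR pathway genes Ahrr and Cyp1b1 stood at 1 in all libraries and 6 were tested, with no call at the main settings. Cyp1a1, the classical AHR target, stood at 6.06 TPM in S302A_DEN replicate 3 and at 1 in the other 11 libraries. Nqo1, a quinone reductase gene also induced through AHR and named here after its values were seen, stood at 2.34, 1.79 and 239 TPM in S302A_DEN, against 13.7, 4.87 and 6.58 TPM in WT_DEN. With all 12 libraries its change for knock-in after DEN was positive and not called. Without replicate 3 its log2 change was -1.51 (adjusted p = 0.0262), a setting that called 5.3% of all genes lower. The sign thus rested on that library. The chaperone gene Hsp90ab1 gave 1.00 for DEN in the knock-in, 0.44 in wild type and 0.32 for knock-in after DEN (adjusted p = 0.138, 0.797 and 0.871). Median-of-ratios scaling called it for DEN in the knock-in (0.69, adjusted p = 0.0424), and without S302A_DEN replicate 3 it gave 0.61 there and -0.067 for knock-in after DEN. The AHR-induced gene Tiparp gave 0.42 for DEN in wild type and -0.30 for knock-in after DEN (adjusted p = 0.803 and 0.884), the second being -0.56 without that replicate.

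The 18 periportal genes served as the opposite zone, and none was called at the main settings. Asl, a urea cycle enzyme gene, stood at 0.402 times the WT_DEN level in S302A_DEN (log2 change -1.29, adjusted p = 0.0624), and Uroc1, of histidine breakdown, at 0.491 times (-1.03, adjusted p = 0.0803). Both were called without S302A_DEN replicate 3 (adjusted p = 0.0231 and 0.0334), where 5.3% of all genes were called lower. At that setting Cdh1, of the same list, was called higher, as were 0.589% of all genes. Asl was also called with at least 5 TPM (adjusted p = 0.0465), median-of-ratios scaling (0.0476) and quantile normalization (0.0354), and without WT_Ctrl replicate 1 (0.0424) or 2 (0.0369). The list's median for knock-in after DEN was -0.62, and -0.39 without that replicate, beside 0.07 and -0.20 over all genes. For DEN, Uroc1 and Etnppl gave -0.77 and -1.48 in the knock-in (adjusted p = 0.138 and 0.158), Uroc1 being called with median-of-ratios scaling (0.0381) and quantile normalization (0.0418), and Asl and Cdh1 gave 1.04 and -0.95 in wild type (adjusted p = 0.215 and 0.588). In untreated livers the genes with the smallest p of these 6 lists (Myc, Znrf3, Rspo3, Wls, Lrp5, Fzd6, Glud1, Slc7a2, Tiparp, Arnt, Cps1 and Ctsc) all had an adjusted p of 1. For the difference between genotypes in the DEN change, those of the 7 lists (Cyp2c54, Cyp2c29, Myc, Znrf3, Wnt2, Wls, Fzd7, Ctnnb1, Car5a, Prodh, Tiparp, Hsp90ab1, Uroc1 and Cdh1) had adjusted p of 0.304 to 0.975.

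**Figure D4:**
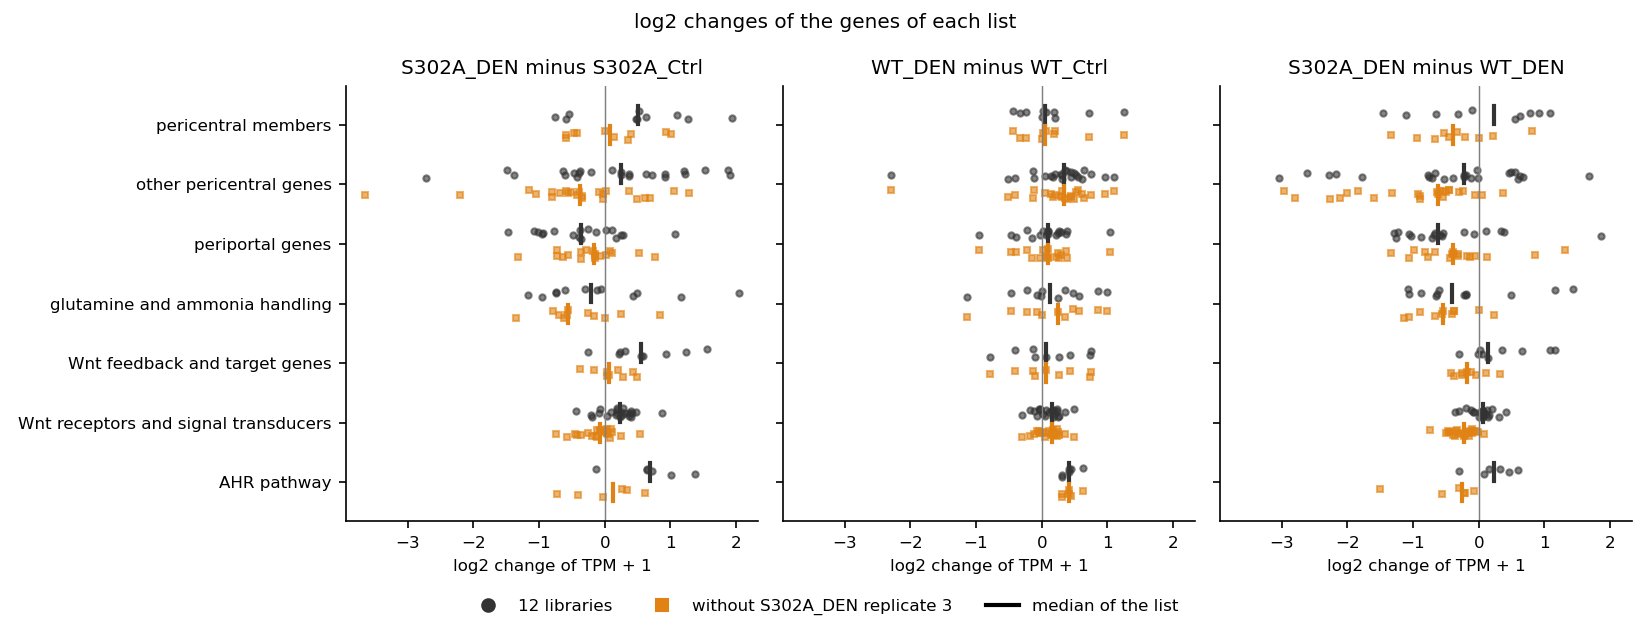
log2 change of TPM + 1 for every tested gene (points) of the pericentral members, other pericentral genes, periportal genes and 4 related lists in S302A_DEN minus S302A_Ctrl, WT_DEN minus WT_Ctrl and S302A_DEN minus WT_DEN, with 12 libraries (circles) and without S302A_DEN replicate 3 (squares), and the median of each list as a bar. In S302A_DEN minus WT_DEN the medians are 0.23 and -0.39 for the members, -0.22 and -0.63 for the other pericentral genes and -0.62 and -0.39 for the periportal genes.

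Across the 12 libraries, Pearson correlations of log2(TPM + 1) were computed between each member and 7357 tested genes with a mean of at least 5 TPM, as a description over points that share depth and composition. Oat was most like Lhpp, another pericentral gene (r = 0.920, and 0.973 without S302A_DEN replicate 3). Slc1a2 had rank 2 for Oat and Oat rank 3 for Slc1a2 (r = 0.850, and 0.798 without that replicate). The gene most like Slc1a2 was D130020L05Rik (0.870), followed by Cd59a (0.861), and for Cyp2e1 it was Upp2 (0.925), followed by Slc27a2 (0.893). Glul was most like Nnt (0.925) and Lect2 like Ptpmt1 (0.968), with 0.907 and 0.965 when replicate 3 was left out. For the members far higher in replicate 3 the likeness was weaker without that library: Cyp1a2 with Hpcal1 had r = 0.987 with it and 0.824 without it, and Lgr5 with Rbpms 0.943 and 0.601. Axin2 was most like Arhgdia (0.993, and 0.918 without it), Rhbg like Hint1 (0.972 and 0.913) and Tbx3 like Psph (0.955 and 0.899).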

How the data were processed

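Total liver RNA was isolated with RNeasy Plus Mini kits and sequenced on an Illumina HiSeq after TruSeq RNA preparation, per the labels. The authors deposited TPM per gene symbol, from kallisto and mm10 per the submitters' processing notes; version and annotation are not given in the sources used here. Values have a floor at 1 (17258 of 31253 symbols in all libraries). None of the 66 pairs of libraries held identical values.

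With a pseudocount of 1, log2(TPM + 1) of 12120 genes above 1 TPM in at least 3 of 12 libraries was fitted with limma 3.58.1 in R 4.3.3 (1 linear model of 4 groups, empirical Bayes with trend, two-sided, Benjamini-Hochberg over all tested genes, threshold 0.05). The script was tested on simulated data for DEN in wild type only. The simulated spread left out the S302A_DEN libraries, so the test does not cover the effect of S302A_DEN replicate 3. Libraries with the same replicate number deviated together weakly at most (r of -0.11 to 0.28) and were not treated as pairs. Members and gene lists were chosen with earlier results of these data known. Named genes were all members, and of each list and comparison up to 4 called genes or else the 2 with the smallest p. One gene that this rule names is not reported here. Over all lists 4 genes were found under older symbols and 1 was not found. Alternatives were pseudocounts of 0.1 and 0.5, no filter, TPM of at least 5, median-of-ratios scaling, quantile normalization, the compared libraries alone, a replicate block and leaving out each library. Gene positions are those of GENCODE M21 (GRCm38).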

Additional observations from a re-analysis of the deposited data

Results flagged for a closer look

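Cyp2c54 and Cyp2c29, cytochrome genes of the pericentral zone with near-identical paralogs, differed in opposite directions with DEN in the genotypes, in every library. Cyp2c54 stood at 50.3, 101 and 34.3 TPM in S302A_DEN, below its 134, 237 and 128 TPM in S302A_Ctrl. In WT_DEN it stood at 330.2, 364 and 347 TPM, above its 221, 229.9 and 263 TPM in WT_Ctrl. The test of the difference gave a log2 value of -2.04 and was not called (limma adjusted p = 0.304). Cyp2c29 stood at 394, 559 and 234 TPM in S302A_DEN, below its 842, 1535 and 704 TPM in S302A_Ctrl. In WT_DEN it stood at 2039, 1755 and 1341 TPM, above its 1180.2, 1065 and 1011 TPM in WT_Ctrl. Its difference was -2.02 (limma adjusted p = 0.315), not called either.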

How the results depend on the processing

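The genes called for DEN in wild type numbered 3 without a filter, 33 with quantile normalization, 147 from the compared libraries alone and 5 with the replicate block, and 1 to 258 when one library was left out. For DEN in the knock-in they numbered 35 without a filter, 132 at TPM of at least 5, 651 with median-of-ratios scaling, 680 with quantile normalization, 17 from the compared libraries alone and 16 to 335 with one left out. For untreated knock-in they numbered 0 without a filter, 2 from the compared libraries alone and 0 to 12 with one left out. For knock-in after DEN they numbered 28 without a filter, 210 with median-of-ratios scaling, 188 with quantile normalization, 4 from the compared libraries alone and 6 to 700 with one left out. For the difference in DEN change they numbered 12 with median-of-ratios scaling, 10 with quantile normalization and 2 to 75 with one left out. Pericentral genes called were 1 for DEN in the knock-in at TPM of at least 5, with median-of-ratios scaling and with quantile normalization (0 to 1 with one left out). For knock-in after DEN they were 0 without a filter, from the compared libraries alone and with the replicate block (0 to 3 with one left out), and for DEN in wild type 0 to 2 with one left out. With median-of-ratios scaling and with quantile normalization, the 1 member called for knock-in after DEN was Tbx3 and not Slc1a2. Under quantile normalization their adjusted p were 0.0437 and 0.0609.

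Reversed signs were mostly of changes near 0. Median-of-ratios scaling gave -0.11 for Cyp2e1, -0.11 for Axin2 and -0.17 for Slc1a2 with DEN in wild type, and 0.0077 for Lect2 in the untreated knock-in. Quantile normalization gave -0.10 for Glul, -0.059 for Axin2 and -0.21 for Slc1a2 with DEN in wild type, -0.075 for Cyp2e1 in the untreated knock-in and 0.030 for Glul in the knock-in after DEN. With one library left out, DEN in wild type ranged from -0.052 to 0.061 for Axin2, -0.065 to 0.24 for Cyp2e1 and -0.25 to 0.28 for Slc1a2. The untreated knock-in ranged from -0.052 to 0.081 for Cyp1a2, -0.12 to 0.14 for Cyp2e1, -0.19 to 0.055 for Lect2, -0.37 to 0.14 for Rhbg, -0.091 to 0.10 for Tbx3 and -0.47 to 0.15 for Slc7a2. DEN in the knock-in ranged from -0.59 to 1.10 for Cyp1a2. Knock-in after DEN ranged from -0.33 to 1.36 for Cyp1a2, -0.45 to 1.07 for Rhbg and -0.067 to 0.55 for Hsp90ab1. The difference in DEN change ranged from -0.36 to 1.34 for Cyp1a2, -0.33 to 1.19 for Rhbg and -0.012 to 0.73 for Ctnnb1. The causes were not tested. Of the members' values under alternatives 925 kept direction and call, 14 lost a call, 11 gained one and 30 reversed. The replicate block ended the Slc1a2 call (adjusted p = 0.0669). Depth is unknown, so the least abundant members, Lgr5 and Axin2, carry an unknown counting error.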
